A study of Mus musculus with 24 samples.

Results

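The genes described here belong to the ribonuclease A family: Ear3 and Rnase2a, which are eosinophil-associated ribonucleases, and Rnase4 and Rnase6. They were measured in bone marrow-derived macrophages on mouse expression arrays. A probe set, the group of oligonucleotides that reads a transcript, was taken as a member if its symbols included 1 of these 4 names or Ear followed by a number, Ear11 being an older symbol of Rnase2a. This gave 4 probe sets, 1 for each gene, among 45037 on the array after its control probe sets were removed, which name 18193 genes, and none of the 4 carried a second symbol. The genes were chosen as a set with their change with IL-4 in vehicle-treated cells in view. Below, this contrast is said to have chosen the genes. Its changes are given as a description with no test.

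The 24 arrays came from marrow cultures of 6 mice of the C57Bl/6 strain. Mice 1 to 3 were Pparg+/- LysCre, with 1 intact and 1 null Pparg allele, and mice 4 to 6 were Pparg fl/- LysCre, with a loxP-flanked and a null allele; their ages were not given in the sources used here. Both genotypes therefore lacked 1 allele and carried Cre in the lysozyme locus, which is active in myeloid cells, so there was no group with both alleles intact and none without Cre. Every mouse gave 4 cultures, grown for 10 days in 20 ng/ml M-CSF: 1 pair without IL-4 (control) and 1 pair with IL-4 at 20 ng/ml. Within a pair, 1 culture received vehicle (DMSO and ethanol) and the other 1 µM rosiglitazone (RSG), a synthetic agonist of PPARγ. This made 8 groups of 3 arrays, 1 array per mouse.

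Ribonucleases of the A family are small secreted enzymes that cut RNA, and several of them act on microbes. The eosinophil-associated members are stored in the granules of eosinophils. In the mouse they have multiplied into a cluster of near-identical genes, some of which are also made by macrophages that have responded to IL-4. IL-4 acts through STAT6 and turns macrophages toward alternative activation, whereas PPARγ is a nuclear receptor that switches on genes of lipid handling when an agonist such as RSG binds it.

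Values are expression ratios as deposited, in which the signal of a probe set was divided by the middle value of its array and then by its own median over the arrays. A ratio of 1 is thus the usual level of that probe set for most probe sets, and levels of different probe sets cannot be set against each other. The lowest ratio in the table was 0.01. Changes were estimated with limma on the log2 scale over all 24 arrays and are given with their standard error (SE). A probe set was called at a Benjamini-Hochberg adjusted p under 0.05 over the 43349 probe sets tested and a change of at least 1.5-fold. The replicates of a group are 3 mice.

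A few facts of the whole series bear on these genes. The spread of single arrays around their group means lay between 0.603 and 0.726 on the log2 scale over all probe sets, with the array of mouse 4 with IL-4 and vehicle at the top, and leaving out that array changed no call of the 4 genes. The Pparg probe set was not lower in Pparg fl/- LysCre cells: in cells given IL-4 and RSG its ratio was 2.38 ± 0.44 (SD, n = 3) against 0.97 ± 0.11 in Pparg+/- LysCre cells (log2 difference 1.29 ± 0.26, limma adjusted p = 0.032). Whether its oligonucleotides lie outside the deleted part is not given in the sources used here, so it does not check the genotype labels. Of 7 macrophage markers, 7 were measured and none was at the lowest ratio on all arrays of any group, but ratios do not show how bright a probe set was. With IL-4 in the presence of RSG, 1 of them, Cx3cr1, was called lower in Pparg+/- LysCre cells. In Pparg fl/- LysCre cells Itgam and Cx3cr1 were called, 1 higher and 1 lower.

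Rnase2a, an eosinophil-associated ribonuclease, was at the lowest ratio of the table without IL-4 and far above it with IL-4. On all 12 arrays without IL-4 its ratio was 0.01, in both genotypes and with or without RSG. With IL-4 and vehicle, the contrast the gene was chosen by, its ratios were 2.80, 2.72 and 2.33 in mice 1 to 3 and 2.48, 2.00 and 2.77 in mice 4 to 6. With IL-4 and RSG they were 2.35, 2.29 and 2.22 in mice 1 to 3 and 2.72, 2.71 and 2.90 in mice 4 to 6. No array with IL-4 came near any array without it. In the whole table only 8 probe sets were at the lowest ratio on at least 3 arrays.

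In the presence of RSG, Rnase2a rose at least 228-fold with IL-4 in Pparg+/- LysCre cells (log2 7.84 ± 0.10 SE, limma adjusted p = 4.3e-20). In Pparg fl/- LysCre cells it rose at least 278-fold (log2 8.12 ± 0.10 SE, limma adjusted p = 2.3e-20). Both folds are lower bounds, since the group without IL-4 lay at the lowest ratio on every array. Arrays at that ratio have no spread of their own, which lowers the SE and the p for this gene. The arrays with RSG are outside the vehicle contrast that chose the gene, but they came from the same mice. The gene was also chosen with earlier results of these data known, so these p values are not independent support. Rnase2a also passed the filter on low ratios only through its IL-4 arrays, so passing the filter adds no support for the rise. With vehicle the corresponding values, which chose the gene, were at least 261-fold and at least 239-fold.

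RSG left Rnase2a at the lowest ratio in cells without IL-4, with a log2 change of 0 in both genotypes. In IL-4-treated cells the values of the 2 genotypes lay on opposite sides of 0; they use the vehicle arrays that chose the gene. In mice 1 to 3 the ratio with RSG was lower than with vehicle in 3 of 3 mice, by 0.26, 0.25 and 0.07 on the log2 scale, but the group change of -0.19 ± 0.10 SE was not called (limma adjusted p = 0.74). In mice 4 to 6 it was higher in 3 of 3 mice, by 0.14, 0.44 and 0.06, and the group change of 0.21 ± 0.10 SE was not called either (limma adjusted p = 1.0). The groups with and without RSG overlapped in both genotypes. The difference between the genotypes was 0.41 ± 0.14 SE on the log2 scale and did not pass the test (limma adjusted p = 1.0).

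**Figure D1:**
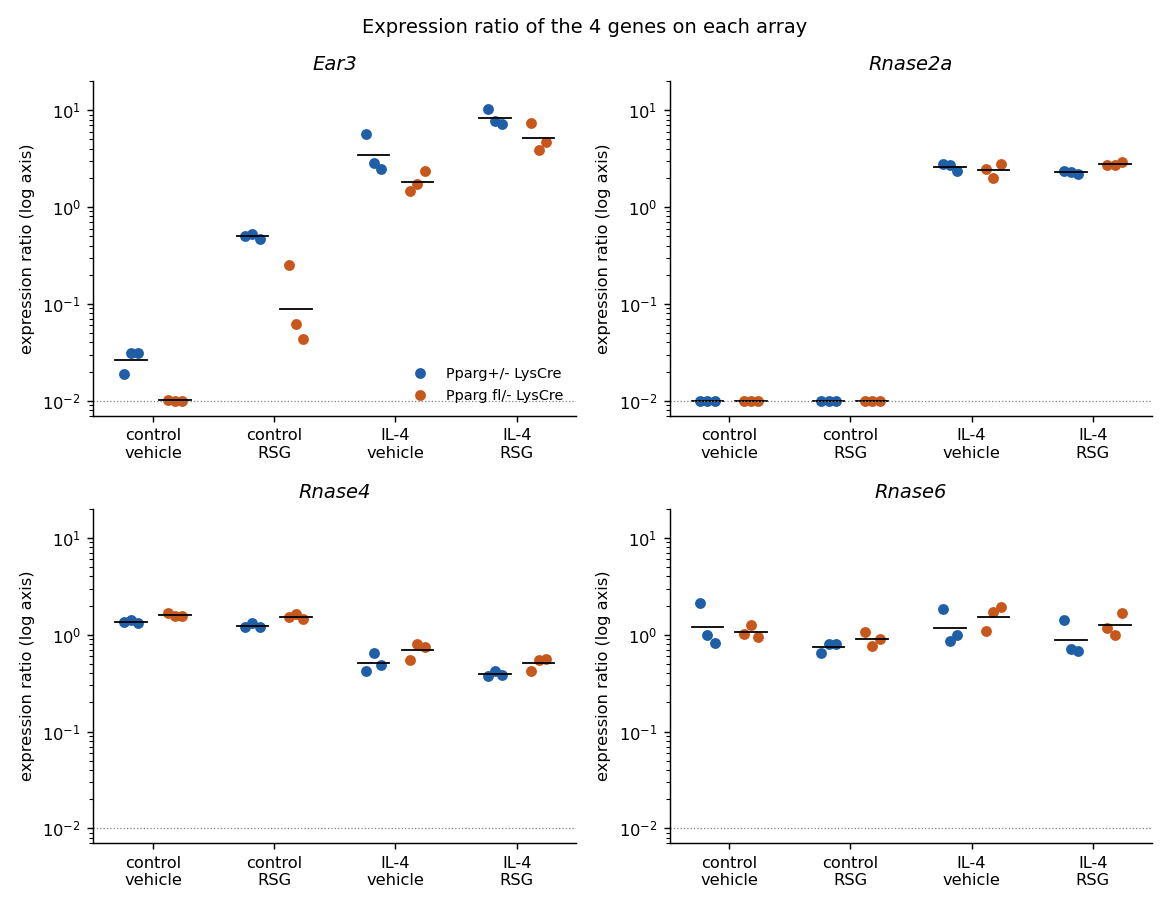
Expression ratio of Ear3, Rnase2a, Rnase4 and Rnase6 (log axis) on each array, by culture. Each point is 1 array of 1 mouse (blue, Pparg+/- LysCre; orange, Pparg fl/- LysCre), each black bar is the geometric mean of 3 arrays, and the dotted line is the lowest ratio of the table, 0.01. Rnase2a lies on that line on all 12 arrays without IL-4, Ear3 lies higher with RSG alone than with vehicle alone, and Rnase4 is lower with IL-4.

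Rnase2b, another eosinophil-associated ribonuclease on the same chromosome, is not among the 4 chosen genes. Its probe set rose with IL-4 as well, from a level that was not at the lowest ratio. Without IL-4 its 12 ratios lay between 0.0266 and 0.335. With IL-4 and RSG they were 1.67, 2.92 and 2.23 in mice 1 to 3 and 3.44, 3.90 and 4.49 in mice 4 to 6. The rise with IL-4 in the presence of RSG was 11.5-fold in Pparg+/- LysCre cells (log2 3.52 ± 0.66 SE, limma adjusted p = 0.00098). It was 15.6-fold in Pparg fl/- LysCre cells (log2 3.97 ± 0.66 SE, limma adjusted p = 0.00027). Rnase2b passed the filter on low ratios only through its IL-4 arrays, so passing the filter adds no support for the rise. Both calls were also made with no filter. RSG itself gave no called change of Rnase2b, with or without IL-4 (log2 changes from -0.49 to 0.87, SE 0.66).

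Because Rnase2a and Rnase2b both rose with IL-4, the 300 bases around their annotated starts are shown, 250 before and 50 from the start on, from RefSeq on GRCm38.p6. The Rnase2a window is chr14:51256063-51256362 on the minus strand and the Rnase2b window is chr14:51162010-51162309 on the plus strand. Capitals mark the longest run of bases that both share.
Rnase2a: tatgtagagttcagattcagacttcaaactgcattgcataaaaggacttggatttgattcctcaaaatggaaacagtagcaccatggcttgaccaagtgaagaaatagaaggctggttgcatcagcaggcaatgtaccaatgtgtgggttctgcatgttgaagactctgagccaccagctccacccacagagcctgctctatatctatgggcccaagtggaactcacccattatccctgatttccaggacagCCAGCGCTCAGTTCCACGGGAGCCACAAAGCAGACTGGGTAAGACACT
Rnase2b: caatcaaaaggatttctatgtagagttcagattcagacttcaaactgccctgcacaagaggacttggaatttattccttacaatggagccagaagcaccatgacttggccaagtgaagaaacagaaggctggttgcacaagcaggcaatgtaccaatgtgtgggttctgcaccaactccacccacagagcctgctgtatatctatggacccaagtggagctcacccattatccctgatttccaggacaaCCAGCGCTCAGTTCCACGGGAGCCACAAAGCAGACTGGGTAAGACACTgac
The shared run is 48 bases long and begins at base 253 of the Rnase2a window and base 250 of the Rnase2b window. In an alignment of the 2 windows with free ends, 261 of 300 columns were identical (87.0%), with 19 gap columns. Over the 24 arrays the log2 ratios of the 2 genes had a Pearson r of 0.93. After each group's mean was subtracted, r was -0.05. Whether the shared bases bear on the rise was not tested. Ear3 has no window here.

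Ear3 is an eosinophil-associated ribonuclease too, but its ratios, unlike those of Rnase2a, were also higher with RSG alone. Some of its oligonucleotides also match other transcripts by the naming of the array (suffix x_at), so near-identical Ear genes may contribute to its signal and cannot be told apart from it. In control cells with vehicle, its ratios were 0.0188, 0.0312 and 0.0307 in mice 1 to 3 and 0.0103, 0.01 and 0.01 in mice 4 to 6. In control cells with RSG, they were 0.507, 0.531 and 0.465 in mice 1 to 3 and 0.250, 0.0614 and 0.0437 in mice 4 to 6. Every array with RSG was above every array with vehicle, and mouse 4 stood above the other two Pparg fl/- LysCre mice. With IL-4 and vehicle, the contrast the gene was chosen by, the ratios were 5.64, 2.85 and 2.46 in mice 1 to 3 and 1.47, 1.75 and 2.36 in mice 4 to 6. With IL-4 and RSG they were 10.2, 7.74 and 7.15 in mice 1 to 3 and 7.36, 3.92 and 4.75 in mice 4 to 6. The order of the 8 groups was thus IL-4 with RSG, IL-4 with vehicle, RSG alone and vehicle alone, in each case with the Pparg+/- LysCre group above the Pparg fl/- LysCre group. Neighbours in that order overlapped among the upper 3 groups and not among the others.

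Without IL-4, RSG raised Ear3 19.1-fold in Pparg+/- LysCre cells (log2 4.25 ± 0.67 SE, limma adjusted p = 0.045), and it was higher in 3 of 3 mice, by 26.9-, 17.0- and 15.1-fold. These cells share their vehicle arrays with the contrast that chose the gene. Ear3 was the only 1 of the 4 genes called in this comparison, against 0.0115% of all probe sets tested, which is 5 probe sets. The others were Gp5, a platelet glycoprotein, which fell (log2 -2.33), Lpcat3, a phospholipid-remodelling enzyme, which rose (log2 0.83), and 2 that rose and have no gene name in the annotation used here; they are named because they are few, after their values were seen. The call of Ear3 was near the threshold and was lost with the mouse as a block (adjusted p = 0.088), with ratios floored at 0.05 (0.098), on the arrays of the compared groups alone (0.29) and with the methods' t-test (0.31). It was also lost without mouse 1 (0.58), mouse 2 (0.49), mouse 3 (0.43), mouse 5 (0.078) or mouse 6 (0.075), while the log2 change stayed between 3.32 and 4.42 over all alternatives.

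In Pparg fl/- LysCre cells without IL-4, Ear3 was higher with RSG in 3 of 3 mice, by 24.4-, 6.14- and 4.37-fold, but the group change of 8.68-fold was not called (log2 3.12 ± 0.67 SE, limma adjusted p = 0.50). The vehicle arrays of mice 5 and 6 were at the lowest ratio, so their folds, and with them the group change of 8.68-fold, are lower bounds. Without mouse 4 the log2 change was 2.37. None of the 4 genes was called in this comparison, against 0.0% of all probe sets, by limma or by the methods' t-test, and 1843 probe sets had an unadjusted p under 0.05, Ear3 among them. The difference of the response between the genotypes did not pass its test (log2 -1.13 ± 0.95 SE, limma adjusted p = 1.0), in which 0.00231% of all probe sets and none of the 4 genes were called. Because the response in Pparg fl/- LysCre cells is a lower bound, the size and the sign of this difference are not fixed by these ratios.

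Angptl4, a secreted inhibitor of lipoprotein lipase and a well-known PPARγ target gene, gives the response to RSG in the same cultures. Without IL-4 its ratio with RSG was 4.03, 3.21 and 3.49 in mice 1 to 3 and 2.53, 1.33 and 1.12 in mice 4 to 6, so mouse 4 was the highest of its genotype for this gene as it was for Ear3. With IL-4 and RSG, Angptl4 was at 6.47 in mouse 4, against 2.23 and 3.29 in mice 5 and 6, and mouse 4 again had the highest Ear3 ratio. Other PPARγ reference genes were mixed. With RSG alone, mouse 4 was also the highest of its genotype for Hilpda. It was not the highest for Pparg, Pdk4, Fabp4, Plin2, Cd36 or Cpt1a. With IL-4 and RSG it was the highest for Fabp4, Plin2 and Cd36, and not for Pparg, Pdk4 or Hilpda. What sets mouse 4 apart was not tested. Of 8 PPARγ reference genes, none was called with RSG in cells without IL-4 in either genotype, and 1, Angptl4, was called with RSG in IL-4-treated cells in both.

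In IL-4-treated cells Ear3 with RSG was 2.43-fold its level with vehicle in Pparg+/- LysCre cells (log2 1.28 ± 0.67 SE, limma adjusted p = 0.74) and 2.83-fold in Pparg fl/- LysCre cells (limma adjusted p = 0.99). Neither was called, although Ear3 was higher in 6 of 6 mice and the groups did not overlap. The share of all probe sets without overlap is not given here. None of the 4 genes was called in these comparisons, against 0.173% of all probe sets in Pparg+/- LysCre cells and 0.00923% in Pparg fl/- LysCre cells. At an unadjusted p under 0.05 there were 0 of the 4 genes in the first and 3 in the second. Among the 43349 probe sets tested there were 3162 and 2107. The vehicle arrays used here also chose the genes, so nothing is read from these counts. The methods' t-test called no probe set in either. In its difference between the genotypes, 0.0% of all probe sets were called, and Ear3 had a value of 0.22 ± 0.95 SE (limma adjusted p = 1.0). The log2 response of Ear3 to RSG was smaller with IL-4 than without it, by 2.97 ± 0.95 SE in Pparg+/- LysCre cells and by at least 1.62 ± 0.95 SE in Pparg fl/- LysCre cells, values that contain the contrast used to choose the gene and so carry no test.

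**Figure D2:**
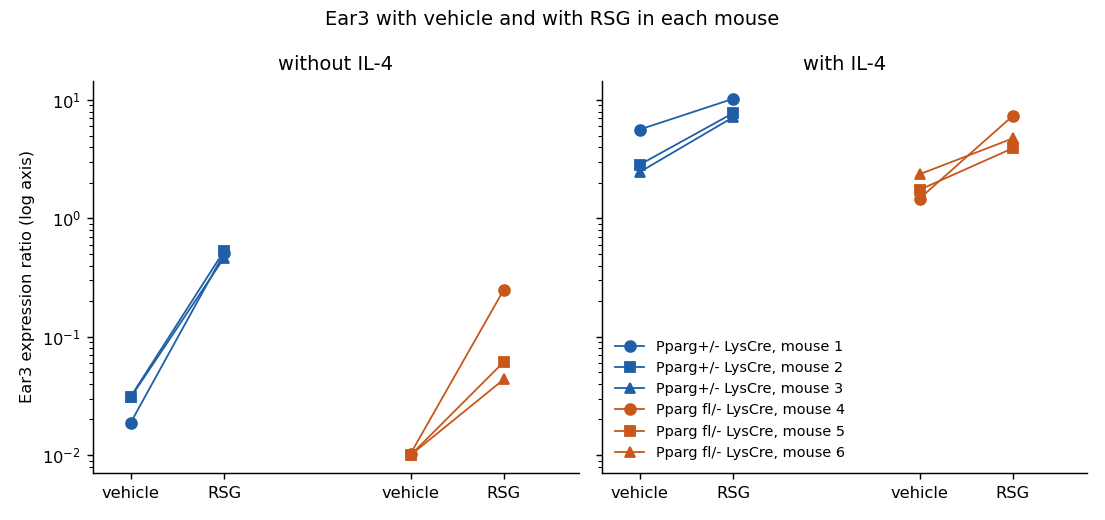
Ear3 expression ratio (log axis) with vehicle and with RSG, without IL-4 (left) and with IL-4 (right). Each line joins the 2 arrays of 1 mouse (blue, Pparg+/- LysCre; orange, Pparg fl/- LysCre). All 6 lines rise in both panels, most steeply without IL-4, where mouse 4 ends at 0.250 and mice 5 and 6 at 0.0614 and 0.0437.

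Within a mouse, the log2 response of Ear3 to RSG in IL-4-treated cells exceeded that of Rnase2a in 6 of 6 mice. The excess ranged from 0.73 to 2.19, with a mean of 1.38 ± 0.55 (SD, n = 6 mice). It is a description, as the pair was set side by side after the values were seen.

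With RSG present in both cultures, IL-4 raised Ear3 16.6-fold in Pparg+/- LysCre cells (log2 4.05 ± 0.67 SE, limma adjusted p = 0.0003) and 58.8-fold in Pparg fl/- LysCre cells (log2 5.88 ± 0.67 SE, limma adjusted p = 4.4e-06). It was higher in 6 of 6 mice. Ear3 passed the filter on low ratios only through its IL-4 arrays, so passing the filter adds no support for the rise. The response was larger in Pparg fl/- LysCre cells by 1.83 ± 0.95 SE on the log2 scale, which did not pass the test of the difference (limma adjusted p = 1.0). In that test 0.00461% of all probe sets and none of the 4 genes were called. With vehicle the corresponding changes, which chose the gene, were 7.02 ± 0.67 SE and at least 7.50 ± 0.67 SE on the log2 scale.

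Rnase4, a ribonuclease with a preference for uridine that is made in many tissues, was the only 1 of the 4 genes that fell with IL-4. In control cells with vehicle, its ratios were 1.34, 1.43 and 1.33 in mice 1 to 3 and 1.70, 1.55 and 1.55 in mice 4 to 6. In control cells with RSG, they were 1.19, 1.33 and 1.21 in mice 1 to 3 and 1.53, 1.63 and 1.45 in mice 4 to 6. With IL-4 and vehicle, the contrast the gene was chosen by, they were 0.426, 0.643 and 0.492 in mice 1 to 3 and 0.554, 0.806 and 0.739 in mice 4 to 6. With IL-4 and RSG they were 0.376, 0.421 and 0.383 in mice 1 to 3 and 0.420, 0.548 and 0.561 in mice 4 to 6. All 12 arrays with IL-4 were below all 12 without it.

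In the presence of RSG, IL-4 lowered Rnase4 3.17-fold in Pparg+/- LysCre cells (log2 -1.66 ± 0.19 SE, limma adjusted p = 6.1e-06) and 3.04-fold in Pparg fl/- LysCre cells (log2 -1.60 ± 0.19 SE, limma adjusted p = 6.5e-06). The responses differed between the genotypes by 0.06 ± 0.27 SE (limma adjusted p = 1.0). In IL-4-treated cells Rnase4 was lower with RSG than with vehicle in 6 of 6 mice, with log2 changes of -0.38 ± 0.19 SE (limma adjusted p = 0.70) and -0.45 ± 0.19 SE (limma adjusted p = 0.95), neither of them called. Without IL-4 the changes with RSG were -0.14 and -0.06 (SE 0.19). Rnase4 passed the filter on low ratios only through its arrays without IL-4, so passing the filter adds no support for the fall.

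Rnase4 shares its start with Ang, the gene of angiogenin, a ribonuclease known for inducing blood vessel growth. In RefSeq on GRCm38.p6 Rnase4 spans chr14:51091077-51106151 and Ang spans chr14:51091077-51102009, so the transcripts of both can begin at the same base, and Rnase4 has a second annotated start. The window of the shared start, chr14:51090827-51091126 on the plus strand, is printed because both genes moved together; capitals mark the 50 bases from the start on.
Rnase4 and Ang: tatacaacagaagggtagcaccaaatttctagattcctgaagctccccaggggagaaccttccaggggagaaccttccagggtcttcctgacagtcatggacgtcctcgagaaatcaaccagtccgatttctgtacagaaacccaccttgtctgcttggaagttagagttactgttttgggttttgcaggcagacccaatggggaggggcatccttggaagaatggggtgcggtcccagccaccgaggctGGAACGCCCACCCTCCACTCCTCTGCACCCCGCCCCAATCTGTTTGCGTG
No match was found in any window of Rnase2a, Rnase2b, Rnase4 or Rnase6, on either strand, for the STAT-type palindrome TTCNNNGAA or the nuclear receptor half-site AGGTCA. Of 32851 windows of the same length, 8.3% held the first and 16.3% the second. This says only that these letters are not within these windows. Palindromes with a spacer of another length and inexact half-sites were not searched. Nothing is therefore read about sites of STAT6 or of PPARγ.

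Ang was read by 3 probe sets, and all 3 fell with IL-4 in the presence of RSG. Like Rnase4, they could pass the filter on low ratios only through their arrays without IL-4, so these falls are not read as support. The Ang probe set most like Rnase4 in pattern had ratios of 1.04, 1.04 and 1.15 in mice 1 to 3 with RSG alone and 0.385, 0.471 and 0.409 with IL-4 and RSG. In mice 4 to 6 it had 1.26, 1.39 and 1.13 with RSG alone and 0.495, 0.556 and 0.590 with IL-4 and RSG. The groups did not overlap in either genotype. Its log2 changes were -1.36 ± 0.23 SE (limma adjusted p = 0.00035) and -1.20 ± 0.23 SE (limma adjusted p = 0.00089), and those of the other two Ang probe sets lay between -1.17 and -1.48, all called. Over the 24 arrays the log2 ratios of Rnase4 and of this Ang probe set had a Pearson r of 0.98. After each group's mean was subtracted, r was 0.87. The arrays share their groups and mice, and whether oligonucleotides of one gene match transcripts of the other was not tested.

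**Figure D3:**
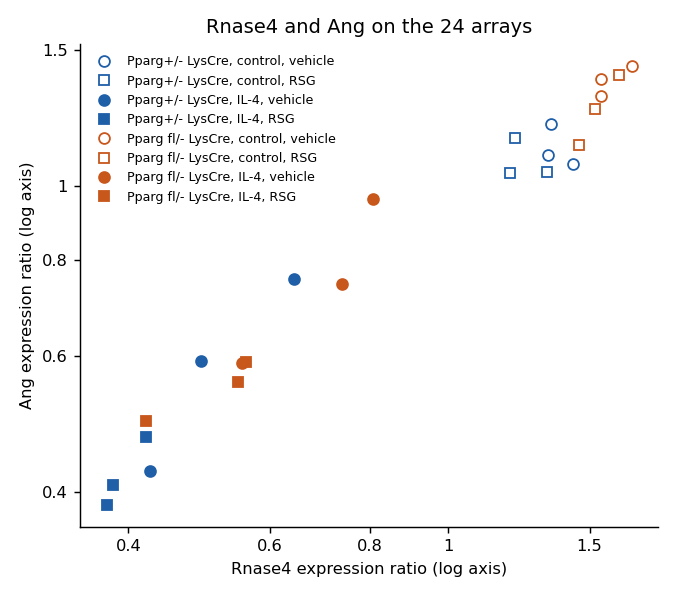
Expression ratio of Ang (its probe set most like Rnase4) against that of Rnase4, both on log axes, for the 24 arrays. Open symbols are control cells and filled symbols IL-4-treated cells; circles are vehicle and squares RSG (blue, Pparg+/- LysCre; orange, Pparg fl/- LysCre). The arrays with IL-4 lie to the lower left of all arrays without it, and the points follow 1 line (Pearson r = 0.98 over 24 arrays).

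Rnase6, a ribonuclease of monocytes and macrophages with antimicrobial activity, was called in none of the 13 comparisons tested. Its 24 ratios lay between 0.644 and 2.13, and every group overlapped its neighbour in the order of group means. In control cells with vehicle its ratios were 2.13, 1.00 and 0.815 in mice 1 to 3, and mouse 1 was the highest array of the gene. In control cells with RSG they were 0.644, 0.807 and 0.804 in mice 1 to 3, below every vehicle array, but the log2 change of -0.69 ± 0.36 SE was not called (limma adjusted p = 0.99). With IL-4 in the presence of RSG its log2 changes were 0.23 ± 0.36 SE in Pparg+/- LysCre cells (limma adjusted p = 0.76) and 0.47 ± 0.36 SE in Pparg fl/- LysCre cells (limma adjusted p = 0.44). With IL-4 and vehicle the Rnase6 ratios were 1.84, 0.868 and 0.997 in mice 1 to 3. In mice 4 to 6 they were 1.08, 1.73 and 1.92, beside 1.02, 1.27 and 0.937 in control cells with vehicle.

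Of the 4 genes, 3 passed the call with IL-4 in the presence of RSG in each genotype, 2 higher and 1 lower, against 11.6% of all probe sets in Pparg+/- LysCre cells and 13.3% in Pparg fl/- LysCre cells. With vehicle the same 3 genes passed in each genotype, against 13.4% and 14.8%. The vehicle contrast chose the genes, so nothing is read from these counts. The median log2 change of the 4 genes with IL-4 and RSG was 2.14 and 3.17, beside 0.11 in both genotypes over all probe sets tested. Ear3 and Rnase2a passed the filter on low ratios only through their IL-4 arrays, and Rnase4 only through its arrays without IL-4.

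**Figure D4:**
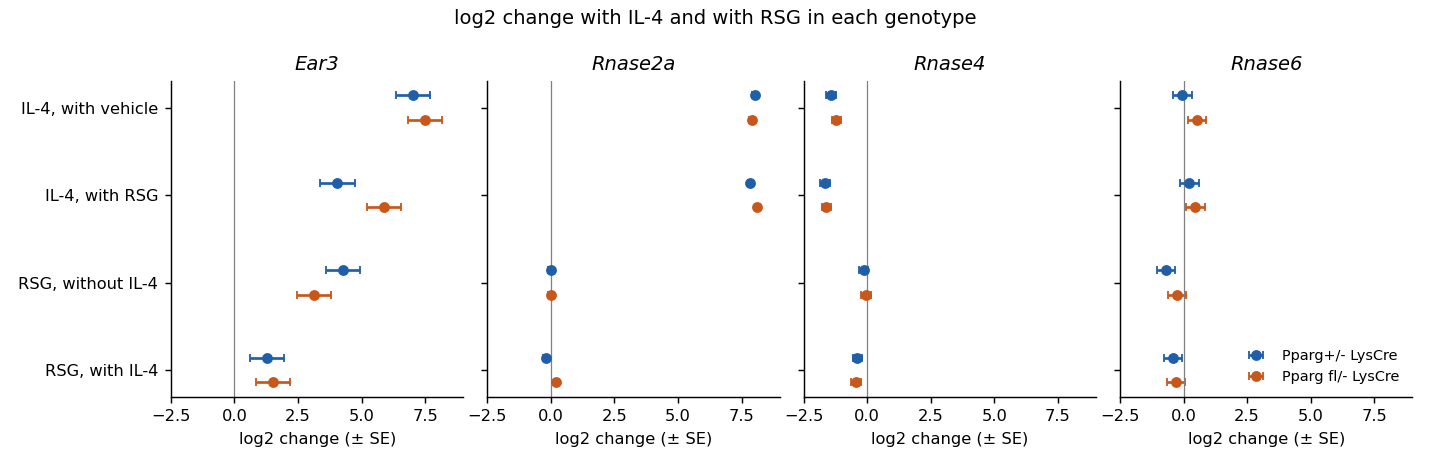
log2 change of each gene with IL-4 and with RSG, with its SE from limma, in Pparg+/- LysCre (blue) and Pparg fl/- LysCre (orange) cells, n = 3 mice. Changes of Rnase2a with IL-4 are lower bounds. So are those of Ear3 in Pparg fl/- LysCre cells for IL-4 with vehicle and for RSG without IL-4. The changes with IL-4 and vehicle chose the genes. Ear3 is the only 1 of the 4 with a rise above 1 on the log2 scale with RSG.

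The genotype comparison set Pparg fl/- LysCre cells, in which Cre can also delete the floxed allele, against Pparg+/- LysCre cells. None of the 4 genes was called between the genotypes in any of the 4 cultures. The share of all probe sets called was 0.0% in control cells with vehicle, 0.00461% in control cells with RSG, 0.00231% in cells with IL-4 and vehicle and 0.501% in cells with IL-4 and RSG. The methods' t-test called no probe set in any of them. At an unadjusted p under 0.05 limma had 0, 1, 1 and 1 of the 4 genes. Among the 43349 probe sets tested it had 3947, 4027, 3963 and 4958.

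Ear3 was lower in Pparg fl/- LysCre cells in all 4 cultures, by 1.38, 2.51, 0.90 and 0.68 on the log2 scale (each ± 0.67 SE), in the order control with vehicle, control with RSG, IL-4 with vehicle and IL-4 with RSG. The first is a lower bound, since 2 of the 3 Pparg fl/- LysCre arrays were at the lowest ratio. Its limma adjusted p values were 0.56, 0.25, 0.73 and 0.75. The arrays of the genotypes did not overlap in the first 3 cultures, but the share of all probe sets without overlap is not given here. Rnase2a was higher in Pparg fl/- LysCre cells by 0.28 ± 0.10 SE with IL-4 and RSG, where the genotypes did not overlap (limma adjusted p = 0.26), and lower by 0.12 ± 0.10 SE with IL-4 and vehicle, where they did. Rnase4 was higher in Pparg fl/- LysCre cells in all 4 cultures, by 0.22 to 0.43 on the log2 scale (SE 0.19, limma adjusted p from 0.49 to 0.76). Rnase6 differed by -0.17 to 0.50 (SE 0.36).

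Among 14 other genes of the family and of its inhibitor, 8 were measured: Rnase1, Rnase2b, Rnase10, Ang, Ang2, Ang4, Ang5 and Rnh1. With IL-4 in the presence of RSG, 2 of the 8 rose, 1 fell and 5 were not called, in both genotypes. Their median log2 change was 0.59 and 1.44, beside 0.11 for all probe sets. The 2 that rose were Rnase2b and Ang2, an angiogenin of the mouse, and Ang fell. Ang2 rose 11.2-fold (log2 3.48 ± 0.77 SE, limma adjusted p = 0.0037) and 14.8-fold (log2 3.88 ± 0.77 SE, limma adjusted p = 0.0013). Its ratios went from 0.146, 0.851 and 0.0770 with RSG alone to 2.98, 2.60 and 1.71 with IL-4 and RSG in mice 1 to 3. In mice 4 to 6 they went from 0.291, 0.111 and 0.208 to 2.95, 2.71 and 2.71. Like Rnase2b, Ang2 passed the filter on low ratios only through its IL-4 arrays, and Ang could pass it only through its arrays without IL-4. The counts of genes that rose or fell are therefore not read as support. Rnh1, the ribonuclease inhibitor that binds enzymes of this family in the cytoplasm, had log2 changes of 0.03 and 0.05 (SE 0.12), and none of the 8 was called with RSG, with or without IL-4, in either genotype.

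**Figure D5:**
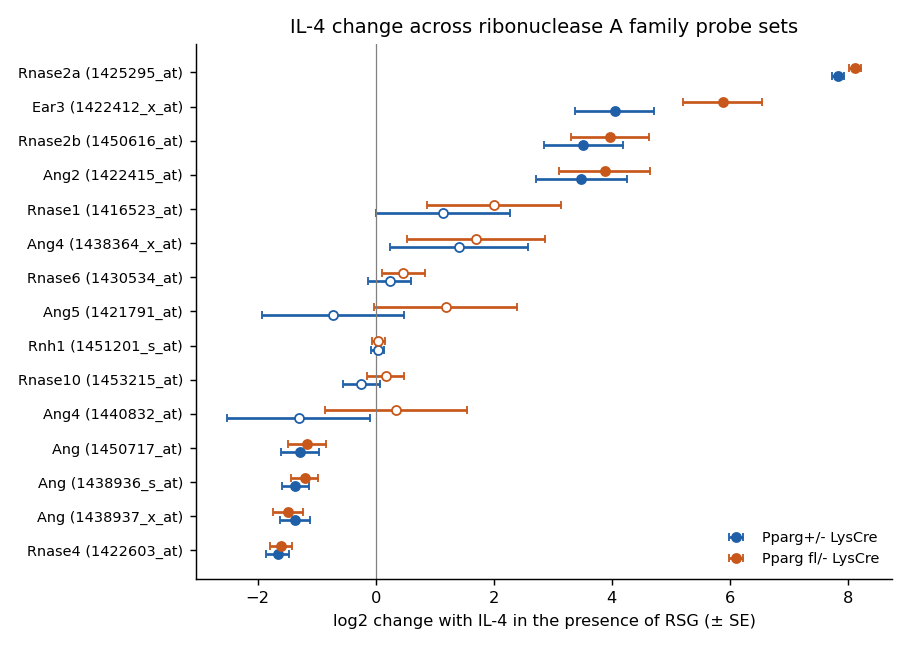
log2 change with IL-4 in the presence of RSG for the 4 genes and the other measured probe sets of the family and its inhibitor, with the SE from limma, in Pparg+/- LysCre (blue) and Pparg fl/- LysCre (orange) cells, n = 3 mice. Filled points were called and open points were not. Rnase2a, Ear3, Rnase2b and Ang2 are filled on the right, and Rnase4 with the 3 Ang probe sets are filled on the left.

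Since Ear3 and Rnase2a are named for eosinophils, markers of these cells were read in the same cultures. Of 7 markers, 6 were measured: Prg2, Epx, Siglecf, Ccr3, Il5ra and Gata1. With IL-4 in the presence of RSG none was called higher in either genotype. The median log2 change of the 6 was -1.09 in Pparg+/- LysCre cells and 0.18 in Pparg fl/- LysCre cells. Prg2, a major granule protein of eosinophils, fell in Pparg+/- LysCre cells (log2 -3.39 ± 0.83 SE, limma adjusted p = 0.0083), and Siglecf, a surface receptor of eosinophils, fell in Pparg fl/- LysCre cells (log2 -1.32 ± 0.44 SE, limma adjusted p = 0.047). Epx, the eosinophil peroxidase, was not called in any response (log2 changes with IL-4 and RSG of -1.31 and -0.39, SE 1.00). The mean log2 ratio of the 6 markers per array lay between -1.40 and -0.40 with IL-4 and RSG and between -0.42 and 0.25 with RSG alone in Pparg+/- LysCre cells. In Pparg fl/- LysCre cells it lay between -0.42 and 0.08 with IL-4 and RSG and between -0.61 and -0.26 with RSG alone. None of the 6 was at the lowest ratio on all arrays of a group.

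Markers of other cell types moved with IL-4 beside these genes. Of 7 neutrophil markers, 5 fell with IL-4 in the presence of RSG in Pparg+/- LysCre cells and 6 in Pparg fl/- LysCre cells. Their mean log2 ratio per array went from between 1.17 and 1.55 to between -3.56 and -2.78 in the first and from between 0.35 and 1.24 to between -3.29 and -3.00 in the second. Of 4 stromal markers, 3 fell in both genotypes, and 2 of 5 dendritic cell markers rose in both. Of 6 mast cell and basophil markers, Cpa3 and Ms4a2 rose in the first genotype, while in the second Cpa3 rose and Kit fell. Of 6 alveolar macrophage markers, none was called in Pparg+/- LysCre cells and 1, Siglecf, fell in Pparg fl/- LysCre cells. None of the markers of any of these lists was called with RSG, with or without IL-4. The part of these cells in the change of the ribonuclease genes was not tested, and in bulk RNA fewer cells of a type and less RNA per cell cannot be told apart.

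The genes with the pattern most like each of the 4 over the 24 arrays were ranked by Pearson r of the log2 ratio, as a description. The arrays share their groups and mice, and most of the variation is the split by IL-4. For Rnase2a the nearest were Retnla and Arg1, both with r = 0.9999, then Mgl2, Slc7a2 and Flrt2 with r of at least 0.9956. Retnla encodes a secreted protein of alternatively activated macrophages and Arg1 encodes arginase. Retnla and Arg1 were also at the lowest ratio with a log2 change of 0 with RSG in cells without IL-4. In the IL-4-treated cells their changes with RSG were -0.14 and -0.08 in Pparg+/- LysCre and 0.19 and 0.27 in Pparg fl/- LysCre, beside -0.19 and 0.21 for Rnase2a, and none was called.

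For Ear3 the nearest genes were Lims2 (r = 0.971), Clec4b1, a lectin receptor of myeloid cells (0.963), Atp6v0a1, a subunit of the proton pump of lysosomes (0.959), Cd36, the scavenger receptor and fatty acid transporter (0.951), and Abcg1, a cholesterol exporter (0.948). Cd36 rose with IL-4 in the presence of RSG in both genotypes (log2 0.59 and 0.86, SE 0.10). With RSG in cells without IL-4 its change was 0.35 ± 0.10 SE in Pparg+/- LysCre cells, which was not called (limma adjusted p = 0.54).

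For Rnase4 the nearest were Ccl3, an inflammatory chemokine, and Ang, both with r = 0.982, followed by Dst, Ankrd28 and Havcr2 with r of at least 0.979. For Rnase6 the nearest was Arid4b with r = 0.748, then Prr15, Msr1, Itprip and Tor1aip1 with r of at least 0.725, well below the values of the other three genes.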

How the data were processed

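The deposited values are expression ratios. Per the methods, the authors computed GC-RMA signals in GeneSpring 7.3 and divided them by the 50th percentile of the array and by the median of the probe set; a last division by vehicle was not applied to the deposited ratio values. The submitters' processing notes also name GCOS (no version found). Here 64 control probe sets were removed, ratios were taken as log2, and 1688 probe sets that reached the array median on fewer than 3 arrays were left out. limma 3.58.1 in R 4.3.3 fitted 1 mean per group over 24 arrays with a mean-variance trend. There were 13 comparisons with a test. Array number limits precision.

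Symbols came from the array annotation updated through gene identifiers. Of the 4 genes, Ear3 alone kept the symbol of the array annotation, as its identifiers matched no gene in the RefSeq list used. Probe sets without a symbol there were not analysed here as members of the family. The named genes were the 4 genes, the 5 genes most like each in pattern and up to 4 called genes of each list. The members and lists were chosen with earlier results of these data known.

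The 4 cultures of a mouse share its number, so the mouse pairs them. Their deviations from the group means correlated between -0.0567 and 0.0442 (median 0.0138) over 36 pairs, with 0 pairs above 0.1.

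Alternatives were array centring, quantile normalization, a floor of 0.05, no filter, no trend, the methods' t-test, the compared groups alone, the mouse as a block, and leaving out mice or 1 array.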

Additional observations from a re-analysis of the deposited data

Results flagged for a closer look

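In IL-4-treated cells the Rnase2a ratio with RSG was below that with vehicle in 3 of 3 Pparg+/- LysCre mice (log2 change -0.19) and above it in 3 of 3 Pparg fl/- LysCre mice (0.21). Neither change was called, the arrays with RSG and vehicle overlapped in both genotypes, and the vehicle arrays are among those that chose the gene. The difference of 0.41 ± 0.14 SE on the log2 scale did not pass the test (limma adjusted p = 1.0), and over the alternatives it lay between 0.29 and 0.48 with adjusted p from 0.72 to 1.0. Retnla and Arg1, the genes most like Rnase2a in pattern, had differences of 0.32 and 0.35, neither of them called; mouse 3 went the other way for both, and mouse 4 for Retnla. The cause was not tested.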

How the results depend on the processing

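Of 1152 values of single genes (the 4 genes, Rnase2b and Ang in 13 comparisons under 15 alternatives, as far as each could be fitted), 1143 kept their direction and side of the threshold where called, 9 lost the call and 0 changed sign. All 9 belong to Ear3 with RSG in Pparg+/- LysCre cells without IL-4. There the count of called genes was 1 and became 0 on the arrays of the compared groups alone, with ratios floored at 0.05, with the mouse as a replicate block and with the methods' t-test, and 0 to 1 when a mouse was left out; fewer arrays are tested when groups or mice are left out, and for the other alternatives the cause was not tested. Of 192 counts of called genes, 183 were unchanged. The block with the mouse changed no other call. The t-test could not be used for differences between responses. Averaging the probe sets of a gene did not apply, as each of the 4 genes had 1.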
